A study of Mus musculus with 20 samples.

Results

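The 10 genes described here report interferon signalling and MHC class I antigen display, and they were followed in whole brains of Katnal2-KO and WT mice. They are B2m, H2-K1 and H2-D1 of the class I molecule and the interferon-stimulated genes Ifit1, Ifit3, Isg15, Irf7, Bst2, Ifitm3 and Oasl2. They were taken as a list of 10 symbols, matched by Ensembl identifier to 10 of the 19463 genes in the deposited table. RNA-Seq had been run on brains of male C57BL/6J mice at postnatal week 3 (P21) and week 10 (P70), with 5 Katnal2-KO and 5 WT mice at each age and 20 mice in all. Katnal2 encodes a katanin-like protein thought to act on microtubules and is linked to autism. The KO mice were homozygous for a frame-shifting deletion of exon 3 and were constitutive knock-outs. The line came from EUCOMM embryonic stem cells with a conditional Katnal2 allele, which were bred to a Flp deleter, treated as 2-cell embryos with the cell-permeable Cre HTNC and crossed back to C57BL/6J. WT mice had the same C57BL/6J background and lacked the deletion, and the labels name no treatment for either genotype.

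Interferons are cytokines that cells release after sensing viral or misplaced nucleic acid. Type I interferon acts through the receptor chains Ifnar1 and Ifnar2 and the kinases Jak1 and Tyk2, and a transcription factor complex that includes Irf9 then binds a promoter element called the ISRE. Interferon gamma acts through Ifngr1 and Ifngr2 and leads to binding at a different promoter element, called GAS. The induced genes include antiviral effectors and the class I pathway, in which a heavy chain such as H2-K1 or H2-D1 pairs with the light chain B2m and shows peptides to CD8 T cells. In the healthy brain these genes are transcribed at a low basal level, with class I mRNA in endothelium, microglia and some neurons.

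The values were normalized counts, that is, read counts estimated per gene and divided by a factor for each mouse, and fold changes were fitted with limma on log2(value + 1). A gene was called when its p-value, adjusted by Benjamini-Hochberg over all genes tested in that comparison, was under 0.05. Depth estimated from the spacing of low values was about 25700000 to 35700000 reads per mouse at P21 and 23500000 to 28900000 at P70. By this approximate estimate the median depth was lower at P70 (24250000) than at P21 (32400000), with overlapping ranges. The spacing was least clear in the mouse at the upper end of each range. The part of depth in the age changes was not tested. In the targeted gene, Katnal2, normalized counts were 78.1 to 96.0 in the P21 KO mice and 99.3 to 115 in the P21 WT mice, without overlap. At P70 they were 95.1 to 126 in KO and 101 to 142 in WT, with overlap. The fitted difference did not pass the test at either age (adjusted p 1). The deletion removes 1 exon, and reads of the other exons still count toward the gene. The P70 mice numbered 5 stood apart from their groups over all genes, with a root mean square deviation from the group mean of 0.532 (KO) and 0.438 (WT) on the log2 scale, against 0.235 to 0.339 in the other 18 mice. Neuronal markers (6 genes, such as Snap25 and Rbfox3) summed to 137185 to 154030 normalized counts over the 20 mice.

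The promoters of the 10 genes were searched for exact letters of the elements that interferon-activated factors bind. The search covered RefSeq windows of 300 bases in GRCm38.p6, from 250 bases before the start to 50 bases from it on, with the start base counted as 0. The ISRE was searched as GAAANNGAAA on both strands, and it was present in 1131 of 32851 promoter windows (3.44%). It was found in 6 of the 10 members, namely B2m, Ifit1, Ifit3, Isg15, Bst2 and Ifitm3. The 6 matched stretches are shown because they are the part of each promoter that the members share, 5′ to 3′ on the gene's strand, with every ISRE match in capitals. A match in the opposite orientation reads TTTC first.
Isg15 (chr4:156200859-156200928, minus strand): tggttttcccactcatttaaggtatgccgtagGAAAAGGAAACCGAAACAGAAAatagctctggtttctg
Bst2 (chr8:71537563-71537632, minus strand): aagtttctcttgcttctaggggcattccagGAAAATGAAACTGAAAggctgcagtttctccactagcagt
Ifit1 (chr19:34640759-34640828, plus strand): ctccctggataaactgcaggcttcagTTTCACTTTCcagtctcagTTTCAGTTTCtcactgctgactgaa
Ifit3 (chr19:34583364-34583433, plus strand): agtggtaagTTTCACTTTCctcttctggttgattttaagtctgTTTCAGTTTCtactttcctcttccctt
B2m (chr2:122147522-122147591, plus strand): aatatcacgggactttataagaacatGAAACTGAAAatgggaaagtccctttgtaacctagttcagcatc
Ifitm3 (chr7:141010716-141010774, minus strand): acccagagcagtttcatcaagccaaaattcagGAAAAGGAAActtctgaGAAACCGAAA

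In Isg15 3 overlapping matches ran from -78 to -57, and in Bst2 2 overlapping matches ran from -130 to -115. Ifit1 held 2 separate matches at -104 and -85, and Ifit3 held 2 at -156 and -122, all in the opposite orientation. B2m held 1 match at -139. In Ifitm3 both matches lay downstream of the annotated start, at 2 and 19. The GAS element, searched as TTCNNNGAA on both strands, was present in 2726 of the windows (8.3%), and among the members in Bst2 at -136 and in Ifitm3 at 13. In both of these genes it overlapped an ISRE match.

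No match to GAAANNGAAA lay in the windows of H2-K1, H2-D1, Irf7 or Oasl2. Their closest stretches differed from it in 1 letter in Oasl2 and in 2 letters in H2-K1, H2-D1 and Irf7. A search for exact letters cannot show that these promoters lack an interferon element. The class I heavy chain promoters shared letters with each other, and the longest identical run between their windows was 47 bases. That run is shown in capitals because it shows how alike the promoters of these heavy chain genes are.
H2-K1 (chr17:34000430-34000500, minus strand): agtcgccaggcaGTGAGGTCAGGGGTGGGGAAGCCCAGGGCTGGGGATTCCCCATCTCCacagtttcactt
H2-D1 (chr17:35262881-35262951, plus strand): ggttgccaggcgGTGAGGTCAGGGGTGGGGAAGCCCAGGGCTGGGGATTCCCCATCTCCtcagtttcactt

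The run began at -141 in H2-K1 and at -201 in H2-D1. Both genes lie on chromosome 17, H2-K1 at 33996017 to 34000347 and H2-D1 at 35262730 to 35267499 (GENCODE M21, GRCm38). Of the members, only Ifit1 and Ifit3 (chromosome 19) and Irf7 and Ifitm3 (chromosome 7) also shared a chromosome with another.

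Per length, B2m and H2-D1 were the most abundant members. Mean levels over the 20 mice, in normalized counts per kilobase of merged exon, were 1740 for B2m, 597 for H2-D1 and 194 for H2-K1. Of the interferon-stimulated genes, Ifitm3, which encodes a membrane protein that blocks viral entry, stood at 232 per kilobase and Ifit3 at 131. Bst2 followed at 88.4, Isg15 at 42.1, Ifit1 at 23, Irf7 at 17.5 and Oasl2 at 15.1. In this order B2m lay above every other member in each mouse (lowest value 1447, against a highest of 743 in H2-D1), and the lowest H2-D1 value of 487 lay above the highest Ifitm3 value of 320.0 per kilobase. Below that, the ranges over mice of each pair of neighbours overlapped. Merged exons overstate the length of genes with several transcripts, which lowers their level per kilobase.

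Of the 10 genes, 0 passed the test between KO and WT at either age, and between P21 and P70 a single gene did, Ifit3 in the KO mice, where it rose 1.42-fold. The percentages of all genes give the background. Between KO and WT 0 of 17610 genes tested were called at P21 and 0 of 17613 at P70 (0% in each). At an unadjusted p under 0.05 in the limma fit stood 429 genes at P21 and 199 at P70, 2.44% and 1.13% of those tested. The paper, which tested counts of these mice with DESeq2 and also set a minimum fold, reported small sets of genes differing between KO and WT at both ages. A count of 0 in the limma fit thus does not show that no gene differed. Between P70 and P21 9.32% of 17630 genes were called in WT (4.62% higher and 4.7% lower at P70) and 8.32% of 17641 in KO (3.78% higher and 4.53% lower). The age by genotype interaction, which tests whether the age change differed between KO and WT, called 0 of 17637 genes (0%, 296 at an unadjusted p under 0.05). All 10 members passed the filter on low values in every comparison.

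**Figure D1:**
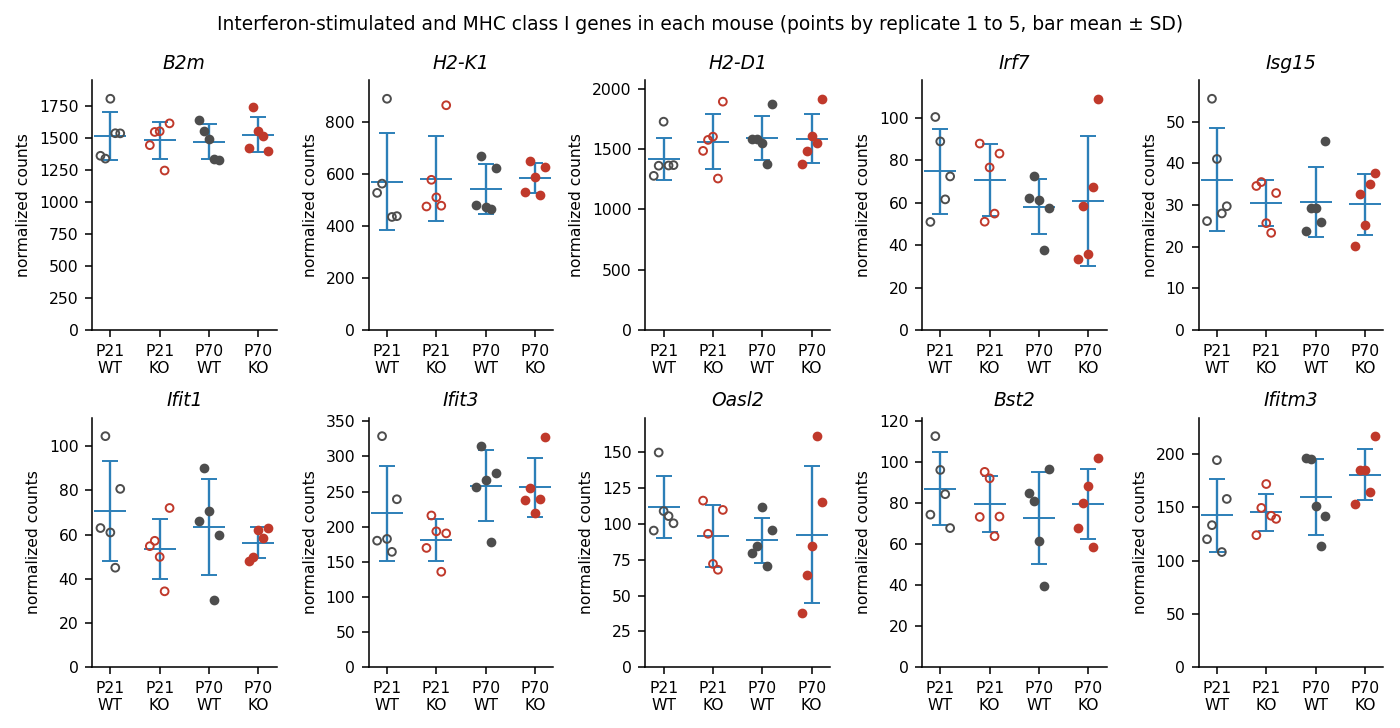
Normalized counts (vertical axes, from 0) of the 10 members in each mouse, by age and genotype. Points are mice, placed left to right by replicate number, open at P21 and filled at P70, gray for WT and red for KO; the blue bar is the group mean ± SD (n = 5). Groups overlap in every panel, except that the P70 KO values of Ifit3 (219.9 to 328) lie above its P21 KO values (136 to 216).

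B2m, the light chain that every classical class I molecule needs at the cell surface, lay in the same range in all 4 groups. Its normalized counts were 1359, 1337, 1804, 1535 and 1534 in P21 WT mice and 1442, 1545, 1550, 1244 and 1612 in P21 KO mice. At P70 they were 1639, 1555, 1492, 1335 and 1330 in WT and 1421, 1736, 1552, 1512 and 1393 in KO. All 4 groups overlapped, and the group means lay between 1470 ± 136 (SD, P70 WT) and 1523 ± 136 (P70 KO; n = 5 each). The fitted log2 fold change of KO against WT was -0.03 ± 0.09 (SE) at P21 and 0.05 ± 0.09 at P70, each with an adjusted p of 1. The 95% intervals of the fold, 0.858 to 1.12 at P21 and 0.907 to 1.18 at P70, give the sizes of change that these mice could not tell from 0. With age the log2 fold change was -0.04 ± 0.09 in WT and 0.04 ± 0.09 in KO (adjusted p 0.847 and 0.819).

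H2-K1 encodes the K heavy chain and varied more between mice than B2m. Its normalized counts were 527, 562, 888, 434 and 437 in P21 WT mice and 474, 577, 509, 477 and 863 in P21 KO mice. Each P21 group thus held 1 mouse far above the others, WT replicate 3 and KO replicate 5. At P70 the counts were 480.0, 669, 474, 465 and 624 in WT and 531, 648, 588, 518 and 627 in KO, with no such mouse. The fitted difference between KO and WT was 0.04 ± 0.20 (log2, SE) at P21 and 0.11 ± 0.12 at P70 (adjusted p 1 in each). With age it was -0.04 ± 0.18 in WT and 0.04 ± 0.15 in KO. Without WT replicate 3 the P21 difference was 0.21, and without KO replicate 5 it was -0.11, neither past the test.

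H2-D1 encodes the D heavy chain. Its normalized counts were 1277, 1361, 1726, 1363 and 1366 in P21 WT mice and 1484, 1575, 1602, 1255 and 1892 in P21 KO mice. At P70 they were 1579, 1581, 1549, 1374 and 1871 in WT and 1372, 1487, 1611, 1547 and 1916 in KO. The same P21 mice as for H2-K1 were highest, and at P70 the mice numbered 5 were highest in both genotypes. The fitted difference between KO and WT was 0.13 ± 0.10 (log2, SE) at P21 and -0.01 ± 0.10 at P70, and the age change was 0.17 ± 0.10 in WT and 0.03 ± 0.11 in KO. None passed the test, the smallest adjusted p being 0.315 for age in WT. Of the 100-base stretches of H2-D1 transcripts, 3.59% were also found in transcripts of other genes, chiefly H2-Q1. Of those of H2-K1 0.957% were, chiefly in H2-Q10. A small share of the reads of each gene could thus have been assigned to such other genes.

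Irf7, the transcription factor that amplifies type I interferon production, spread most in the P70 KO mice. Its normalized counts were 51.0, 101, 89.0, 61.6 and 72.5 in P21 WT mice and 88.0, 51.1, 76.7, 54.9 and 83.2 in P21 KO mice. At P70 they were 62.0, 72.8, 61.2, 37.5 and 57.5 in WT and 33.6, 58.7, 35.8, 67.5 and 109 in KO. The P70 KO values covered the whole P70 WT range and their coefficient of variation was 50.3%, against 22.1% in P70 WT, 26.8% in P21 WT and 23.7% in P21 KO. The highest P70 KO value, 109, came from replicate 5, which stood apart over all genes. The log2 fold change of KO against WT was -0.07 ± 0.21 at P21 and -0.04 ± 0.31 at P70, and that of age was -0.35 ± 0.21 in WT and -0.31 ± 0.30 in KO. The adjusted p of the age change was 0.346 in WT and 0.599 in KO.

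Isg15, a ubiquitin-like protein conjugated to targets in interferon-treated cells, was the member with the lowest counts. In P21 WT mice its normalized counts were 26.1, 55.5, 41.1, 27.98 and 29.7, and in P21 KO mice 34.6, 35.5, 25.7, 23.3 and 32.9. At P70 they were 23.8, 29.3, 29.3, 25.9 and 45.3 in WT and 20.2, 32.7, 25.1, 35.1 and 37.8 in KO. All groups overlapped, and the largest fitted change of the gene in these 4 comparisons was -0.20 ± 0.24 (log2, SE) with age in WT.

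Ifit1 and Ifit3, neighbours on chromosome 19, encode proteins that bind viral RNA and take part in antiviral signalling. Ifit1 stood at 63.0, 104.5, 61.0, 45.0 and 80.7 normalized counts in P21 WT mice and at 54.8, 57.2, 49.9, 34.4 and 72.0 in P21 KO mice. At P70 it stood at 66.2, 90.3, 70.7, 30.5 and 60.0 in WT and at 48.0, 49.8, 62.3, 58.4 and 63.1 in KO. Its fitted difference between KO and WT at P21, -0.38 ± 0.23 on the log2 scale (fold 0.770, 95% interval 0.546 to 1.09), was the largest of any member at that age and did not pass the test (adjusted p 1). At P70 the difference was -0.10 ± 0.25.

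Ifit3 was the member that rose with age in KO mice. Its normalized counts were 169.8, 216, 193, 136 and 190.5 in P21 KO mice and 239, 255, 219.9, 239 and 328 in P70 KO mice. Every P70 KO value was above every P21 KO value, by a margin of 219.9 against 216, and 10.9% of all genes tested in that comparison likewise had groups that did not overlap. The fitted fold was 1.42 (95% interval 1.14 to 1.75), with a log2 fold change of 0.50 ± 0.14 (SE) and an adjusted p of 0.0479. The call was lost under some alternatives. The adjusted p was 0.0518 with no filter on low values, 0.0625 without the intensity trend and 0.0763 with all 20 mice in 1 fit, and it rose above 0.05 when any 1 of 8 of the 10 KO mice was left out (0.0463 without P21 KO replicate 2 and 0.0335 without P70 KO replicate 5, the others up to 0.11).

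In WT mice Ifit3 was 180.1, 329, 183, 164 and 239 normalized counts at P21 and 257, 315, 267, 178 and 276 at P70. The groups overlapped, since WT replicate 2 at P21 was the highest of the 10. The age change in WT was 0.26 ± 0.19 on the log2 scale (adjusted p 0.436), and the interaction, 0.24 ± 0.25 with an adjusted p of 1, did not show the age change of Ifit3 to differ between KO and WT. Between KO and WT Ifit3 gave -0.24 ± 0.18 at P21 and 0.00 ± 0.16 at P70, neither past the test. Of the 100-base stretches of Ifit3 transcripts 31.7% also occurred in the neighbouring copy Ifit3b, so that reads could have been split between the copies and the value of either is uncertain. Ifit3b, too, was called in KO, with a log2 fold change of 0.74 ± 0.21 (adjusted p 0.0485).

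Oasl2 encodes an antiviral protein of the oligoadenylate synthetase family. In P21 WT mice it stood at 95.3, 149.7, 109, 105 and 100.4 normalized counts, and in P21 KO mice at 116, 93.1, 72.1, 68.0 and 109.7. At P70 it stood at 79.7, 84.9, 112, 70.6 and 95.6 in WT and at 37.7, 64.3, 84.3, 161 and 115 in KO. KO replicate 1 was thus the lowest and KO replicate 4 the highest of all 20 mice. The log2 fold change of KO against WT was -0.30 ± 0.17 at P21 and -0.08 ± 0.32 at P70 (adjusted p 1 in each). The age change was -0.33 ± 0.16 in WT and -0.12 ± 0.33 in KO, with an adjusted p of 0.208 and 0.873.

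Bst2 and Ifitm3 encode antiviral membrane proteins. Bst2, which tethers budding virus to the cell, was 74.5, 113, 96.3, 84.5 and 68.0 normalized counts in P21 WT mice and 73.4, 95.4, 92.2, 64.0 and 73.6 in P21 KO mice. At P70 it was 85.1, 81.3, 61.6, 39.5 and 96.98 in WT and 68.1, 80.4, 88.4, 58.8 and 102 in KO. The groups overlapped, and no fitted difference of Bst2 passed the test, the largest being -0.30 ± 0.23 (log2, SE) with age in WT.

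Ifitm3 stood at 120.2, 133, 194, 108 and 158 normalized counts in P21 WT mice and at 124, 149.6, 172, 142 and 139 in P21 KO mice. At P70 it stood at 197, 196, 151, 114 and 142 in WT and at 153, 185, 185, 165 and 217 in KO. It had the largest difference of any member between KO and WT at P70, 0.20 ± 0.16 on the log2 scale (adjusted p 1). Its age change was 0.31 ± 0.12 in KO (adjusted p 0.143) and 0.16 ± 0.18 in WT (adjusted p 0.631).

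As a list, the 7 interferon-stimulated members at P21 had 6 negative and 1 positive fold change of KO against WT, with a median of -0.20 on the log2 scale against 0.00 over all genes tested. The median moved with single mice, to -0.04 without WT replicate 2 and -0.115 without KO replicate 4. At P70 5 were negative and 2 positive, with a median of -0.02. Leaving out 1 mouse moved this P70 median from -0.13 (without WT replicate 4) to 0.14 (without KO replicate 1, when 6 of 7 were positive), so that it had no stable sign. For age in WT, 5 of 7 were negative with a median of -0.20, which was -0.04 without P21 WT replicate 2, -0.10 without P70 WT replicate 4, -0.32 without P70 WT replicate 2 and -0.35 without P70 WT replicate 5. For age in KO, 4 of 7 were negative with a median of -0.01, and leaving out 1 mouse moved it from -0.11 (P70 KO replicate 5) to 0.15 (P70 KO replicate 1, when 6 of 7 were positive), again with no stable sign. All 7 had a positive interaction term, with a median of 0.22, and none was called. Without P70 WT replicate 4, P70 KO replicate 5, P21 WT replicate 2 or P21 KO replicate 4 that median was 0.08, 0.10, 0.11 or 0.13 with 6 of 7 positive, and without P70 KO replicate 4 only 5 of 7 were positive. Non-overlapping groups occurred in 0 of the 10 members between KO and WT (0.46% of all genes at P21 and 0.193% at P70), in 0 for age in WT (10.8% of all genes) and in 1 for age in KO.

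**Figure D2:**
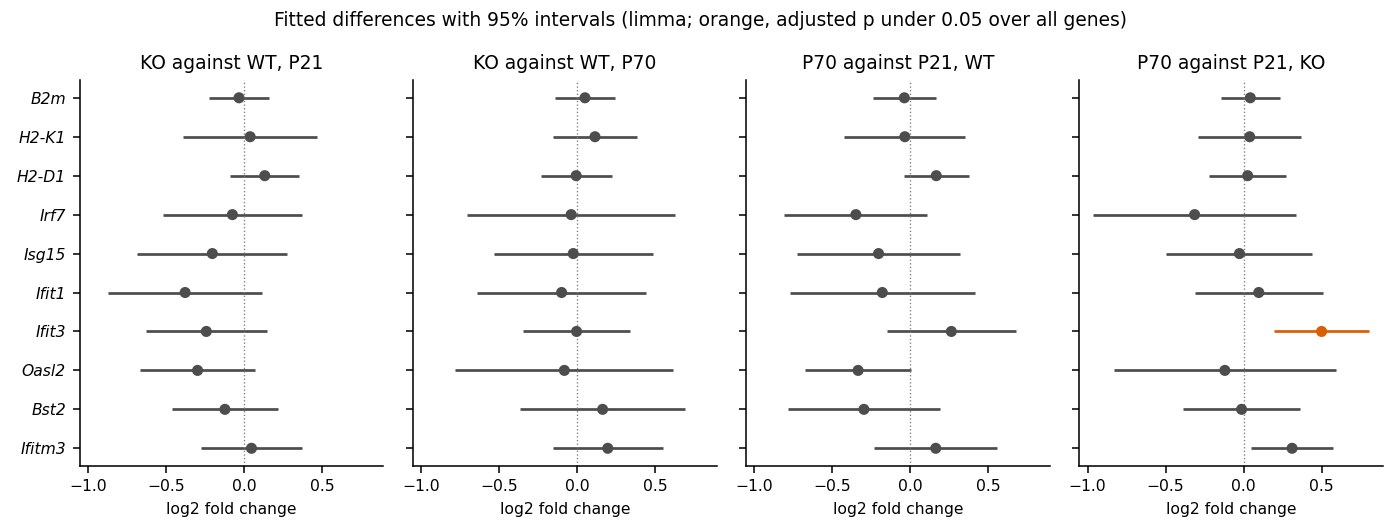
Fitted log2 fold changes (horizontal axes) of the 10 members with 95% intervals in 4 comparisons, KO against WT at P21 and P70 and P70 against P21 in WT and KO (limma, n = 5 per group). Points are fitted changes and lines their intervals. Most intervals cross 0, and the one change with an adjusted p under 0.05 is drawn in orange, Ifit3 in KO at 0.50.

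The interferon-stimulated members varied together from mouse to mouse, to differing degrees. Each log2 value was expressed as its deviation from the mean of the mouse's own group, which removes age and genotype. P21 WT replicate 2 was the highest of its group in 6 of the 7 interferon-stimulated members and lay 0.45 above the group mean on average (log2). P70 KO replicate 5, which stood apart over all genes as well, was also highest in 6 of 7, at 0.43. P70 WT replicate 4 was the lowest of its group in 6 of 7, at -0.55, and P21 KO replicate 4 and P70 KO replicate 1 were lowest in 5 of 7, at -0.34 and -0.44. Since each deviation is taken from the group's own mean, every group holds mice above and below 0. These values therefore do not compare genotypes or ages.

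The class I members were not raised in the mouse with the highest interferon-stimulated genes at P21. In P21 WT replicate 2 the mean class I deviation was -0.06 on the log2 scale. In some other mice the class I and interferon-stimulated averages went the same way. P21 KO replicate 4, P70 WT replicate 4 and P70 KO replicate 1 also had the lowest class I mean of their groups, at -0.26, -0.18 and -0.14. P21 KO replicate 5 was the highest of its group in both averages, at 0.15 for the interferon-stimulated members and 0.34 for class I. The P21 mice with the highest class I deviation were WT replicate 3 at 0.42 and KO replicate 5 at 0.34, carried by H2-K1 (0.69 and 0.61) more than by H2-D1 (0.29 in each) or B2m (0.26 and 0.13).

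**Figure D3:**
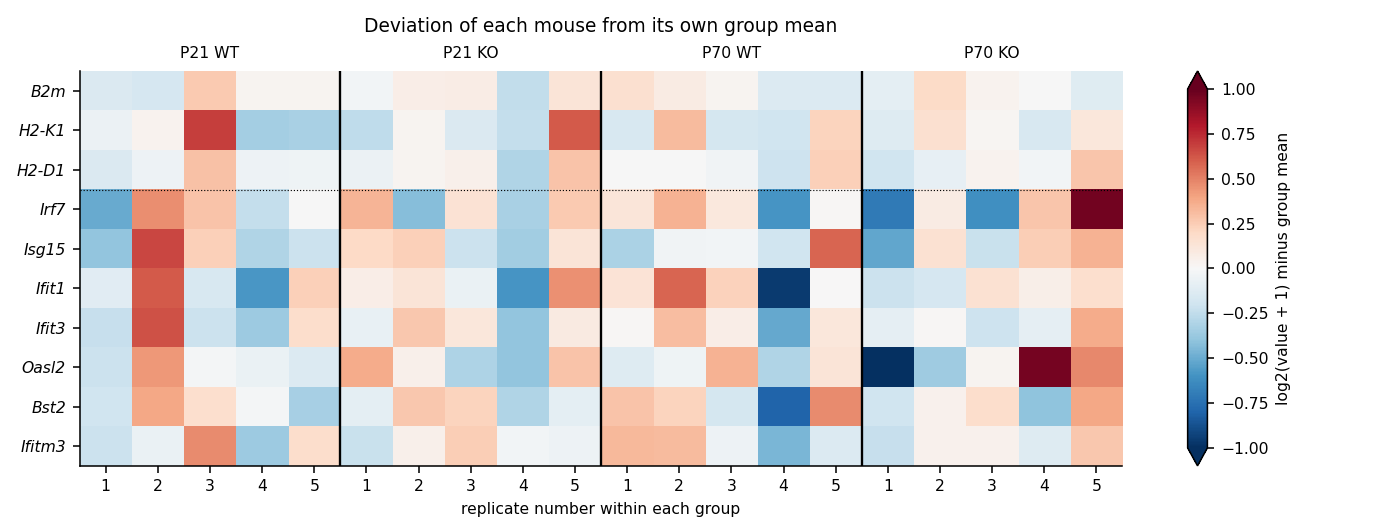
Deviation of each mouse (columns, by group and replicate number) from its own group mean on the log2(value + 1) scale (color) for the 10 members (rows), with the class I genes above the dotted line. Red is above and blue below the group mean; the scale ends at -1 and 1. P21 WT replicate 2 and P70 KO replicate 5 are red over most interferon-stimulated rows, and P70 WT replicate 4 is blue over all 7.

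Over the 20 mice, the 21 pairs of interferon-stimulated members had Pearson correlations of these deviations from 0.0712 to 0.84, with a median of 0.507 and all 21 positive. Within single groups some of these pairs were negative, down to -0.691 for Ifitm3 and Oasl2 and -0.469 for Isg15 and Ifitm3. Pairs of genes outside the members were not examined in this way. The closest pair was Ifit1 and Ifit3 (r = 0.84), followed by Isg15 and Oasl2 (0.682) and Ifit3 and Bst2 (0.646). Among the 3 class I pairs, H2-K1 and H2-D1 gave 0.719, and B2m gave 0.449 with H2-K1 and 0.433 with H2-D1. The 21 pairs of a class I with an interferon-stimulated member had a median of 0.405, and all 21 were positive as well. H2-D1 was the class I gene nearest to the interferon-stimulated average, with r = 0.676 and rank 89 of 17630 genes, against 0.449 for H2-K1 and 0.23 for B2m. Each interferon-stimulated member was also set against the average of the others. Ifit3 gave r = 0.783 (rank 12 of 17631 genes), Irf7 0.763 (15), Ifit1 0.73 (49) and Isg15 0.694 (54). Bst2 gave 0.585 (265), Oasl2 0.547 (906) and Ifitm3 0.458 (1931), so many other genes followed the average more closely than these members. The correlations are descriptions over mice that share a normalization and, within an age, similar depth.

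Outside the members, the 5 genes most like the interferon-stimulated average over the 20 mice were Uncx (r = 0.847, rho = 0.791), Trim34a (r = 0.84, rho = 0.82), Mavs (r = 0.829, rho = 0.686), Kank2 (r = 0.818, rho = 0.741) and Zfp90 (r = 0.809, rho = 0.708). Mavs is the adaptor of cytosolic RNA sensing, and Trim34a is a tripartite-motif gene induced by interferon. Without the 2 mice farthest from the median of the average, r was 0.757, 0.748, 0.704, 0.665 and 0.666. The 5 genes most like the class I average were Oas1b (r = 0.839, rho = 0.835), H2-Q4 (r = 0.793, rho = 0.746), H2-Q7 (r = 0.782, rho = 0.544), Bag5 (r = 0.782, rho = 0.765) and Sdhc (r = 0.775, rho = 0.821). Without the 2 farthest mice they gave 0.744, 0.535, 0.411, 0.666 and 0.746. H2-Q4 and H2-Q7 are class I heavy chain genes themselves, and H2-Q7 holds some of the 100-base stretches that H2-K1 shares with other genes.

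The mean log2 values of cell type marker lists were centred on the group means in the same way and set beside the members over the 20 mice. Over the 10 lists, the correlation with the interferon-stimulated average ran from -0.364 for border macrophages and -0.23 for lymphocytes to 0.317 for oligodendrocytes and 0.387 for choroid plexus, with 0.203 for microglia and 0.297 for endothelium. With H2-K1 it ran from -0.296 for border macrophages and -0.276 for leptomeninges to 0.344 for endothelium and 0.398 for blood. The part of these cell types in the spread between mice was not tested.

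Upstream of the members, 1 of 19 receptor and signalling genes tested was called with age, in both genotypes (9.32% of all genes in WT and 8.32% in KO). This was Ifngr2, the second chain of the interferon gamma receptor, and it was lower at P70. Ifngr2 stood at 1406, 1147, 1266, 1258 and 1252 normalized counts in P21 WT and 1008, 737, 1189, 855 and 980.4 in P70 WT, where P70 replicate 3 overlapped the P21 values. In KO it stood at 1347, 1358, 1384, 1353 and 1317 at P21 and at 961, 964, 951, 841 and 1006 at P70, without overlap, as in 10.9% of all genes. The log2 fold change of Ifngr2 was -0.42 ± 0.11 in WT (adjusted p 0.0307) and -0.52 ± 0.06 in KO (adjusted p 0.000488). Of the 15 nucleic acid sensing genes tested, which include the RNA sensor Ddx58 and the DNA sensor Cgas, 0 were called with age in either genotype. Their median log2 fold change with age was 0.00 in WT and -0.01 in KO, as over all genes.

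A few other interferon-stimulated genes were called with age. In WT 1 of 36 tested was higher at P70 and 2 were lower (8.33% called, against 9.32% of all genes), and in KO 3 of 35 were higher and 1 was lower (11.4%, against 8.32%), shares near those of all genes. Mx2, a dynamin-like antiviral GTPase, fell in both, from 38.1, 106.7, 80.6, 51.2 and 36.8 to 25.3, 25.3, 19.0, 18.4 and 23.3 normalized counts in WT. In KO its counts went from 73.3, 55.9, 58.7, 49.3 and 40.7 to 10.8, 25.6, 10.8, 28.2 and 22.04. The P21 and P70 values of Mx2 did not overlap in either genotype, and its log2 fold changes were -1.34 ± 0.28 in WT (adjusted p 0.00938) and -1.55 ± 0.29 in KO (adjusted p 0.00629). Such non-overlap was seen in 10.8% of all genes in WT and 10.9% in KO. In WT Oas2, an oligoadenylate synthetase, rose by 1.15 ± 0.31 (log2, SE; adjusted p 0.0331), and Rtp4 changed by -0.75 ± 0.22 (adjusted p 0.0471). In KO Xaf1, a gene linked to apoptosis, rose by 0.86 ± 0.18 (adjusted p 0.0116) and Dtx3l, a ubiquitin ligase partner of Parp9, by 0.45 ± 0.11 (adjusted p 0.0299), beside Ifit3b. The interaction called none of these genes, so that no difference between KO and WT in their age change was shown.

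Genes that load class I molecules rose with age in part, while B2m, H2-K1 and H2-D1 did not pass the test; whether the changes of the 2 groups of genes differ was not tested. Of 14 peptide loading genes 3 were higher at P70 in WT and 2 in KO, and 0 were lower, with a median log2 fold change of 0.11 in WT and 0.19 in KO. Among all genes tested, 4.62% were called higher at P70 in WT and 3.78% in KO. Tap2, a subunit of the peptide transporter, stood at 144.5, 129, 162, 125 and 156 normalized counts at P21 and at 247, 233, 188, 218 and 306 at P70 in WT. In KO it stood at 144, 171, 162, 154 and 139 at P21 and at 247, 257, 250.2, 217 and 267 at P70. The ages did not overlap in either genotype, and Tap2 rose 1.65-fold in WT (log2 0.72 ± 0.13, adjusted p 0.00462) and 1.61-fold in KO (log2 0.68 ± 0.10, adjusted p 0.000991). Ages without overlap were found in 10.8% of all genes in WT and 10.9% in KO. Tapbp, the tapasin that bridges transporter and heavy chain, rose by 0.39 ± 0.10 in WT and 0.42 ± 0.10 in KO (log2, SE; adjusted p 0.0304 and 0.0227). Its relative Tapbpl rose by 0.49 ± 0.11 in WT (adjusted p 0.012). Tap1, the partner of Tap2, did not pass the test, with 0.08 ± 0.22 in WT and -0.04 ± 0.21 in KO.

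Of 10 other class I heavy chain genes, H2-T22 and H2-T23, which encode nonclassical class I molecules, were higher at P70 in both genotypes and 0 were lower. The share of all genes called higher was 4.62% in WT and 3.78% in KO. The median log2 fold change of the 10 heavy chain genes was 0.35 in WT and 0.29 in KO. H2-T22 stood at 361, 384, 394, 361 and 368 normalized counts at P21 and at 623, 584, 491, 624 and 732 at P70 in WT, and at 420.0, 409.6, 413, 370.0 and 424 at P21 and 586, 649, 617, 643 and 706 at P70 in KO. Every P70 value of H2-T22 was above every P21 value, with a fold of 1.62 in WT and 1.57 in KO (adjusted p 0.000779 and 0.000309). Of all genes, 10.8% in WT and 10.9% in KO had ages that did not overlap. H2-T23, which presents class I leader peptides to NK cell receptors, rose 1.498-fold in WT and 1.506-fold in KO (adjusted p 0.0187 and 0.0299). Of the 100-base stretches of H2-T22 transcripts 8.86% were shared with other genes, and of H2-T23 3.15%. All 7 MHC class II genes had a positive age change in both genotypes, with medians of 0.55 and 0.54, and 0 were called; the invariant chain Cd74 gave 0.55 ± 0.20 in WT and 0.56 ± 0.20 in KO (adjusted p 0.0981 and 0.106).

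**Figure D4:**
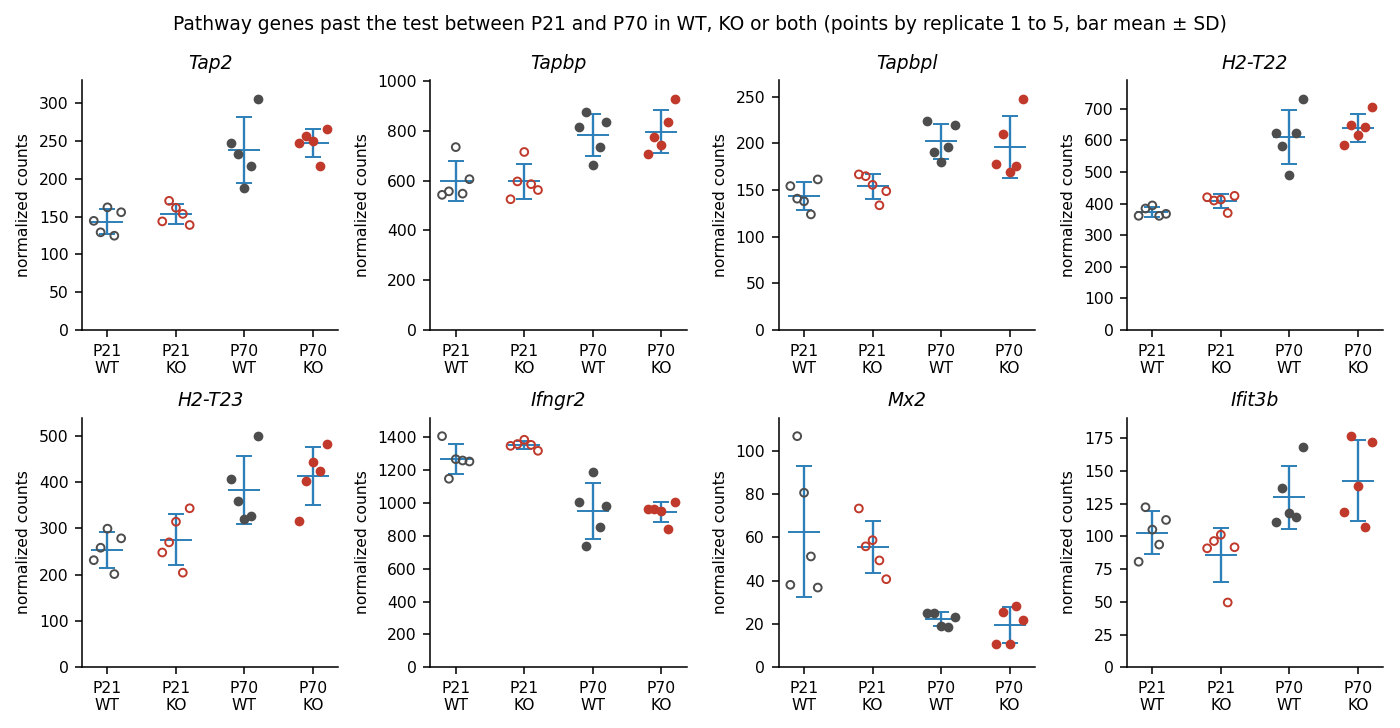
Normalized counts (vertical axes, from 0) of 8 pathway genes that passed the test between P21 and P70 in WT, KO or both, in each mouse. Points are mice, open at P21 and filled at P70, gray for WT and red for KO; the blue bar is the group mean ± SD (n = 5). Tap2 and H2-T22 rise and Mx2 falls without overlap of the ages in either genotype.

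Over the 100 pathway genes with a row in the table, 9 of 99 tested were called with age in WT (9.09%, against 9.32% of all genes) and 9 of 98 in KO (9.18%, against 8.32%), shares close to the background. Both genotypes called 6 of them (Ifngr2, Mx2, Tapbp, Tap2, H2-T22 and H2-T23), all 6 in the same direction, which is 66.7% of the calls in each. Over all genes 958 were called in both, all 958 in the same direction, which is 58.3% of the WT calls and 65.3% of the KO calls. The WT and KO comparisons share no mice. In bulk RNA, fewer cells of a type and less RNA per cell cannot be told apart. Markers of several cell types also differed with age, and their part in these changes was not tested. All 6 oligodendrocyte markers were lower at P70 in both genotypes, with summed counts of 379118 to 558363 over the P21 mice and 144591 to 191620 over the P70 mice. Of 5 blood markers tested, 5 were lower in WT and 4 in KO, the sums being 12070 to 61280 at P21 and 6983 to 13113 at P70. Of 4 border macrophage markers tested, 2 were lower in WT and 3 in KO, with sums of 290 to 518 at P21 and 202 to 343 at P70. Of 10 microglial markers 0 were called, with sums of 6529 to 9661 at P21 and 7129 to 9210 at P70. Of 8 endothelial markers 1 was lower in each genotype, and the sums were 3889 to 6262 over all mice. The number 5 mice weighed on these lists: without the P70 mouse numbered 5 the share of all genes called with age was 17.0% in WT and 21.3% in KO, and 4 peptide loading genes were higher in each genotype, with Canx added in WT and Canx and Calr in KO. Likewise the receptor and signalling genes called went from 1 to 4 in WT (with Jak1, Jak2 and Ptpn11 higher) and from 1 to 2 in KO (with Jak2 higher), and the other interferon-stimulated genes called in KO from 4 to 7 (with Herc6 higher and Ifi44 and Lgals3bp lower). In WT these stayed at 3, with Herc6 called higher and Rtp4 no longer called, and the other heavy chain genes went from 2 to 3, with H2-T24 added.

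No gene of the lists was called between KO and WT. The gene with the smallest p in each list at P21 was Ptpn11 (log2 fold change 0.11 ± 0.05), Ddx58 (-0.17 ± 0.12), Ifi27l2a (-0.88 ± 0.30), Nlrc5 (-0.68 ± 0.38), H2-T22 (0.12 ± 0.06) and H2-Eb1 (0.34 ± 0.23), each with an adjusted p of 1. At P70 these were Irf2 (-0.21 ± 0.08), Tmem173 (-0.39 ± 0.23), Psmb9 (0.78 ± 0.22, smallest in 2 lists), H2-Q7 (-0.39 ± 0.28) and H2-Ab1 (0.25 ± 0.22), also at an adjusted p of 1. Psmb9, an immunoproteasome subunit, stood at 23.6, 14.9, 16.1, 14.8 and 20.6 normalized counts in P70 WT mice and at 46.8, 25.9, 29.0, 29.9 and 28.03 in P70 KO mice, without overlap. The same held for 0.193% of all genes tested between KO and WT at P70. At P21 the Psmb9 groups overlapped, at 10.7 to 26.2 in WT and 10.4 to 51.2 in KO. Its partner Psmb8 overlapped at P70, with a log2 fold change of 0.03 ± 0.33. Blood markers were lower in P21 KO than in P21 WT mice in 6 of 6 genes, with a median log2 fold change of -0.75 and none called. At an unadjusted p under 0.05 in the limma fit stood 5 of the 6, against 2.44% of all genes. The blood markers summed to 12070 to 30954 in P21 KO and 24489 to 61280 in P21 WT, and their part in the differences at P21 was not tested. At P70 5 of 5 blood markers tested were higher in KO. Choroid plexus markers were higher in KO in 7 of 7 genes at both ages (median log2 fold change 0.27 and 0.34), endothelial markers were lower in 8 of 8 at P21 (-0.05) and higher in 8 of 8 at P70 (0.11), and microglial markers were higher in 10 of 10 at P70 (0.05). Oligodendrocyte markers were higher in KO in 6 of 6 at P21 (0.11) and lower in 6 of 6 at P70 (-0.10), leptomeningeal markers were higher in 6 of 6 at P21 (0.06), and border macrophage markers were lower in 4 of 4 at P70 (-0.24). Both lymphocyte markers tested were higher at P21 (0.10) and lower at P70 (-0.11). The other lists had mixed signs. Higher in KO at P21 were 5 of 6 astrocyte, 2 of 6 neuronal, 6 of 10 microglial and 3 of 4 border macrophage markers. At P70 these were 2 of 6 astrocyte, 3 of 6 neuronal and 4 of 6 leptomeningeal markers. Over all genes tested the median log2 fold change was 0.004 at P21 and -0.005 at P70. The signs within a list are not separate observations, since the same mice give them all. None of these markers was called, and their part in the values of the members was not tested.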

How the data were processed

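Whole-brain RNA of 20 mice (5 per age and genotype) was sequenced as paired 100-base reads from TruSeq libraries. Per the deposited files and the paper, the authors quantified transcripts with Salmon 1.1.0 against GRCm38, correcting for GC bias, summed them to genes with tximport, and let DESeq2 (1.26.0, R 3.6.2 in the submitters' processing notes) divide the counts by its factors; the deposited signal values are these normalized counts. The median ratio to a common reference was the same in every column, so that all 20 mice had been normalized together. Of 19463 gene identifiers 19447 matched a symbol in GENCODE M21. Deposited values are not whole, so limma 3.58.1 in R 4.3.3 was used in place of a count test (lmFit, eBayes with an intensity trend, two-sided) on log2(value + 1). Genes entered when the mean value of the mice fitted reached 10, p-values were adjusted by Benjamini-Hochberg over all of them, and 0.05 was the threshold. Fold changes on this scale understate the change of low genes. Each pairwise comparison used its 2 groups, and the interaction all 20 mice. The script was tested on simulated data.

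Groups and replicate numbers came from sample titles. Depth was estimated from the spacing of low values and is approximate, and no interval for counting error was derived from it. Promoter windows came from RefSeq tables on GRCm38.p6, and shared 100-base stretches from the GENCODE transcripts. The labels do not give a sequencing run, so that a run shared by the mice of an age cannot be told apart from age. The members and gene lists were chosen with earlier results of these data known. Named were the 10 members, Katnal2, up to 3 called genes per list and direction by fold change with age in WT, the list gene with the smallest p between KO and WT, and the 5 genes most correlated with each member average; genes called with age in KO alone or without the mice numbered 5, Cd74, Tap1 and Psmb8 were chosen after their values were seen. Alternatives were other scalings, pseudocounts of 0.5 and 5, no filter, a minimum mean of 50, no trend, all mice in 1 fit, a threshold of 0.01, a replicate block and each mouse left out; leaving out the P70 mice numbered 5 for the lists was chosen after seeing the data. No protein sequence is shown, and some genes of the lists are not reported here.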

Additional observations from a re-analysis of the deposited data

Results flagged for a closer look

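In the 40 sets of 5 mice tested (10 members in 4 groups), 5 held a mouse farther from the others than Dixon's 95% critical value of 0.71 allows; chance flags about 1 in 20 such sets. H2-K1 was 863 normalized counts in P21 KO replicate 5, with the next mouse at 577, and 887.9 in P21 WT replicate 3, with the next at 562. H2-D1 was 1726 in P21 WT replicate 3, with the next at 1366, so that the class I heavy chains stood out together in that mouse. Oasl2 was 149.7 in P21 WT replicate 2, with the next at 109, in the mouse that was highest in 6 of the 7 interferon-stimulated members. Isg15 was 45.29 in P70 WT replicate 5, with the next at 29.3.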

How the results depend on the processing

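Of 1055 values of members under the alternatives, 70 changed sign, 66 of them when 1 mouse was left out, and the one called value, Ifit3 for age in KO, kept its sign. The count of 1 member called for age in KO (Ifit3) became 0 at a threshold of 0.01, with no filter on low values (0), without the intensity trend (0), with all 20 mice in 1 fit (0) and with the replicate block (0); leaving out each mouse gave 0 to 1, and its log2 fold change 0.40 to 0.57. The counts of 0 in the other 4 comparisons stayed at 0 under every alternative run. Same-numbered mice are different animals, and the correlations of their deviations were -0.119 to 0.16 across ages, -0.00913 to 0.26 at P21 and 0.0749 to 0.705 at P70. At P70 all 5 were positive and 7 of 10 mice were closest to their own number, a hint of likeness in the data; in the other 3 comparisons 2 to 5 of 10 were. A correlation above 0.1 in every pair, required to take the numbers as pairs, was not reached in any comparison. The replicate block moved the genes called for age from 1643 to 1265 in WT and from 1467 to 913 in KO, the other interferon-stimulated genes called in WT from 3 to 1 and peptide loading in KO from 2 to 1, and a minimum mean of 50 moved the former list to 0, because Mx2 (mean 42.5), Oas2 (21.9) and Rtp4 (43.2) fell under it and were not tested. With quantile scaling Bst2 became 0.02 for age in KO and H2-D1 0.0043 between KO and WT at P70, and without both P70 mice numbered 5 Isg15 became 0.033 at P70 and Irf7 -0.20 in the interaction. Leaving out each mouse in turn, the log2 fold changes that crossed 0 are given per comparison. For age in WT they were -0.081 to 0.027 (B2m), -0.12 to 0.14 (H2-K1) and -0.33 to 0.059 (Ifit1). For age in KO they were -0.017 to 0.076 (B2m), -0.11 to 0.089 (Bst2), -0.049 to 0.10 (H2-D1), -0.023 to 0.19 (H2-K1), -0.0497 to 0.21 (Ifit1), -0.11 to 0.10 (Isg15) and -0.36 to 0.16 (Oasl2). Between KO and WT at P21 they were -0.073 to 0.035 (B2m), -0.11 to 0.21 (H2-K1), -0.043 to 0.17 (Ifitm3) and -0.20 to 0.042 (Irf7). Between KO and WT at P70 they were -0.037 to 0.28 (Bst2), -0.076 to 0.054 (H2-D1), -0.34 to 0.046 (Ifit1), -0.13 to 0.074 (Ifit3), -0.28 to 0.14 (Irf7), -0.11 to 0.12 (Isg15) and -0.32 to 0.20 (Oasl2). For the interaction they were -0.10 to 0.23 (H2-K1), -0.21 to 0.21 (Irf7) and -0.024 to 0.49 (Oasl2). Isg15 had the lowest counts and so the least depth behind it, a mean of 30.2 to 36.1 normalized counts per group.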
